A study of Mus musculus with 6 samples.

Results

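Colony-stimulating factors are secreted growth factors of myeloid cells. The 8 genes described here encode the 3 ligands M-CSF (Csf1), GM-CSF (Csf2) and G-CSF (Csf3) and the 5 chains of their receptors (Csf1r, Csf2ra, Csf2rb, Csf2rb2 and Csf3r). They were chosen by gene symbol, and all 8 are among the 18019 genes of the deposited table. Levels come from sequencing of polyadenylated RNA of RAW264.7, a mouse macrophage line transformed by Abelson leukaemia virus. All 6 libraries came from cells induced with lipopolysaccharide (LPS), a bacterial product that activates macrophages. The cells of 3 libraries were also treated with TPPU, an inhibitor of soluble epoxide hydrolase, and those of the other 3, the control group, had LPS without it. The labels used here give no TPPU dose, time or LPS concentration. They also leave unsaid if replicates were grown apart, and the p-values below then describe only how far these libraries scatter, which can be technical.

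M-CSF signals through CSF1R, a receptor tyrosine kinase on which macrophages depend for survival and proliferation. GM-CSF binds an alpha chain, CSF2RA, that pairs with the common beta chain CSF2RB and activates JAK2 and STAT5. The mouse has a second beta chain gene, Csf2rb2, whose product works mainly with the IL-3 receptor. G-CSF acts through CSF3R, a single chain that forms dimers and signals to STAT3. LPS-activated macrophages are a source of GM-CSF and G-CSF, whose mRNAs are short-lived and carry AU-rich elements, repeats of ATTTA in the 3′ untranslated region to which decay factors such as tristetraprolin (Zfp36) bind.

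All 3 ligand mRNAs hold ATTTA in their 3′ untranslated regions, and so does 1 of the 5 receptor mRNAs. The ligand sites are shown because such elements are a feature that the choice of genes did not use. The 30-base windows with the most ATTTA repeats in the 3′ untranslated regions follow, from the GENCODE M21 transcripts of GRCm38, written 5′ to 3′ on the sense strand with each ATTTA in capitals.
Csf2, chr11:54247329-54247358, minus strand: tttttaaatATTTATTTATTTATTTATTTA
Csf3, chr11:98702984-98703013, plus strand: gatagtttATTTAtctctATTTAatATTTA
Csf1, chr3:107741109-107741138, minus strand: tttatataaggtcATTTAaatatctATTTA

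The 3′ untranslated region of Csf2 has 317 bases and held 9 ATTTA matches, counted on the sense strand with overlaps, and 5 matches of the longer motif ATTTATTTA, each of which contains 2 of the shorter. Among the first 317 bases of 16043 mouse 3′ untranslated regions at least that long, 1.17% held ATTTATTTA and 0.0187% held 9 or more ATTTA. The region of Csf3 has 669 bases with 6 ATTTA and no ATTTATTTA. Of the 12521 regions at least that long, 1.32% held 6 or more ATTTA in their first 669 bases. Csf1 had 4 ATTTA in 2111 bases, a number that 49.7% of 4933 regions reached in their first 2111 bases. Of the receptor genes, Csf1r had 3 in 1669 bases, and Csf2ra, Csf2rb, Csf2rb2 and Csf3r had 0. A match is a description of the letters and does not show that a protein binds there.

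Values are FPKM, the fragments of a gene scaled by its length and by the total of the library, so levels of different genes can be set side by side. The fragments behind them could be recovered: with the summed exon length of each gene in GENCODE M21, low values of the table were whole multiples of 1 fragment, within 0.1 of a fragment, in 94.0% to 94.4% of cases, against 20.0% by chance. The step gave about 18200000, 22800000 and 21200000 fragments in TPPU replicates 1, 2 and 3, and 17700000, 22500000 and 19100000 in control replicates 1, 2 and 3. All 8 genes came out whole in all 6 libraries. The counts ran from 54 fragments (Csf2rb2, TPPU replicate 1) to 34376 (Csf3, control replicate 3). The 95% intervals given below are exact Poisson intervals on these fragments and cover counting error only.

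Of the 12 macrophage markers examined 11 were at 1 FPKM or more in at least 3 libraries (all but Mertk), with a summed level of 3218 to 3398 FPKM in TPPU libraries and 3084 to 3515 in control libraries. Values were available for 4 of 8 listed markers of granulocytes and 3 of 4 of dendritic cells. They were available for 2 of 4 markers of T cells and 1 of 3 of mast cells. All 5 listed markers of fibroblasts and all 4 of epithelium had values. The available markers of each of these cell types summed to between 0 and 4.87 FPKM in every library, and none reached 1 FPKM in 3 libraries. Of the B cell markers Cd79b did, and of the osteoclast markers Acp5 and Ctsk. Control replicate 3 and TPPU replicate 1 stood apart, with 0.371% and 0.914% of FPKM from the mitochondrial genome against 1.46% to 1.85% in the other 4 libraries. The description of the TPPU samples also cites a column named for an sh-LIS1 knockdown, but Pafah1b1, which encodes LIS1, measured 10.7, 13.5 and 14.2 FPKM in TPPU libraries and 11.7, 14.2 and 6.52 in control libraries, and the groups overlapped.

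In these cells a single ligand stood far above every other gene of the family. Csf3 averaged 869 ± 59.7 FPKM with TPPU and 1059 ± 187 in control (SD, n = 3 each), and ranked between the 10th and the 29th highest of the 18019 genes in each library. The receptor genes Csf1r and Csf2ra came next, at 48.8 ± 2.24 and 37.3 ± 2.80 FPKM with TPPU and 43.2 ± 5.43 and 38.0 ± 4.90 in control. Csf2 followed with 18.2 ± 3.57 FPKM with TPPU and 28.0 ± 1.42 in control, then Csf3r with 9.09 ± 1.26 and 9.27 ± 0.721. Csf1, Csf2rb and Csf2rb2 were the lowest, at 3.06 ± 0.0472, 2.14 ± 0.237 and 0.836 ± 0.279 FPKM with TPPU and 3.03 ± 0.245, 3.39 ± 0.497 and 1.38 ± 0.276 in control.

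Most neighbours in this order were separated by more than the spread of their values. With TPPU all 7 neighbouring pairs had values that did not overlap. In control the values of Csf1r and Csf2ra overlapped, and so did those of Csf2rb and Csf1. Csf1 was above Csf2rb with TPPU and below it in control. The lengths behind FPKM include exons of every annotated transcript, which lowers genes with long minor transcripts. Per base of the longest transcript Csf2rb would be 1.49 times and Csf1 1.26 times as high, at 3.17 and 3.87 FPKM with TPPU and 5.04 and 3.83 in control, and the order of Csf1 and Csf2rb in each group stays as it was.

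**Figure D1:**
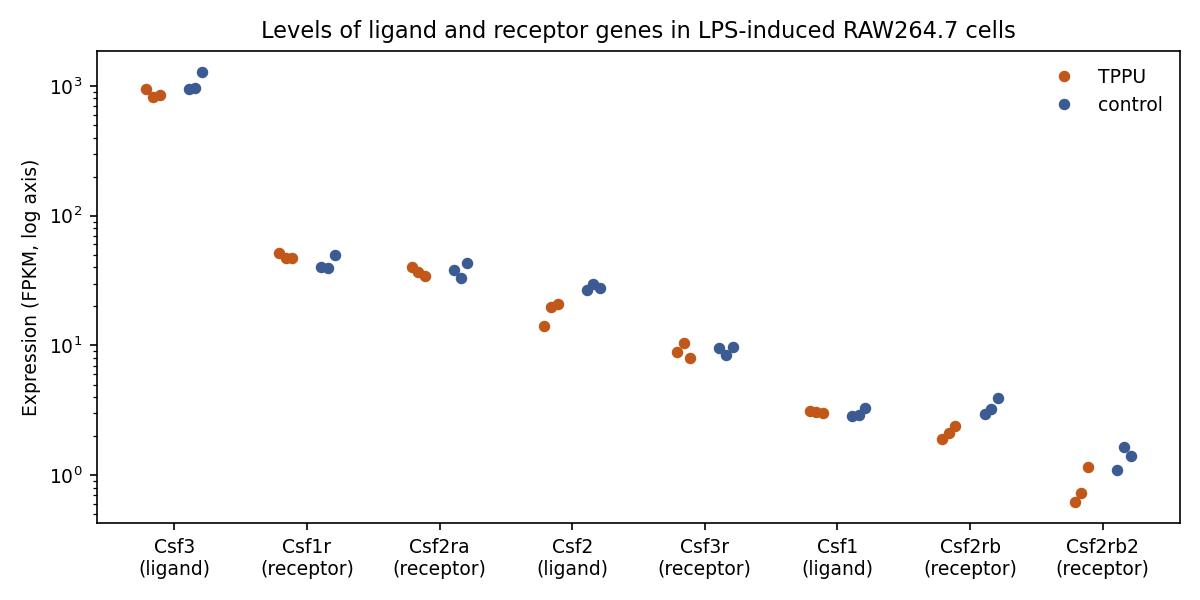
Expression in FPKM on a log axis of the 8 genes, ordered by their mean over all libraries. Each point is 1 library, with TPPU left of control. Csf3 lies at 827 to 1274 FPKM and every other gene below 52.

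No gene of the family passed the test for a difference between TPPU and control. The fit was limma on log2(FPKM + 1) over the 9728 genes that reached 1 FPKM in 3 or more libraries, with Benjamini-Hochberg adjustment over all of them and a threshold of 0.05. Over all these genes it called 0 higher and 0 lower (0% in each direction), while 408 had an unadjusted p under 0.05 in the higher direction (4.19%) and 360 in the lower (3.70%), or 7.89% in either. Of the family 2 genes did so, Csf2 and Csf2rb, both lower with TPPU. All 8 genes passed the filter, Csf2rb2 with 4 libraries at 1 FPKM or more (1 TPPU and all 3 control). Of the 8, 6 had negative changes and 2 positive ones, with a median log2 fold change of -0.15, against 45.6% negative and a median of 0.02 over all genes tested. In 3 of the 8 (Csf2, Csf3 and Csf2rb) every TPPU value lay below every control value, and in 0 above. Over all genes tested 7.88% lay wholly below and 7.48% wholly above. The family was chosen with earlier results of these data known, so this count is a description. In bulk RNA fewer cells that express a gene and less of its RNA per cell cannot be told apart.

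Among the ligands, Csf2 had the largest difference in log2 fold change. Csf2 encodes GM-CSF and lies on chromosome 11 (54247271 to 54249667, GRCm38, the assembly of mm10), on the minus strand, in a single annotated transcript of 800 bases. It measured 14.1, 19.6 and 20.8 FPKM in TPPU replicates 1, 2 and 3, and 26.7, 29.5 and 27.9 in control replicates 1, 2 and 3. The TPPU values lay below the control values in all libraries, by the most in TPPU replicate 1. They rested on 206, 358 and 354 fragments with TPPU and on 378, 532 and 426 in control.

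The gap in Csf2 was wider than counting error. The highest TPPU value had a 95% counting interval of 18.7 to 23.1 FPKM and the lowest control value one of 24.1 to 29.5. The TPPU mean was 35.1% lower. The log2 fold change was -0.61 (SE 0.14, 95% interval -0.94 to -0.28), the 60th smallest p of 9728, and its limma adjusted p of 0.397 did not pass. With sample quality weights, which counted control replicate 3 at 0.191 and control replicate 1 at 3.84, the change was -0.51 and passed narrowly (limma adjusted p = 0.0491). The limma adjusted p ranged from 0.0491 to 0.908 over 18 alternatives. Without TPPU replicate 1, the lowest of the 6 libraries for Csf2, the change was -0.45, and it was also -0.45 without that library and control replicate 3 together (limma adjusted p = 0.101).

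Csf3, which encodes G-CSF, lies on the plus strand of the same chromosome (98701263 to 98703629). It measured 937.8, 827 and 843 FPKM in TPPU replicates 1 to 3, and 938.4, 964 and 1274 in control replicates 1 to 3. The groups did not overlap, but TPPU replicate 1 and control replicate 1 were apart by less than their counting intervals of 926 to 950 and 926 to 951 FPKM. Control replicate 3 was by far the highest. The log2 fold change was -0.27 (SE 0.12, 95% interval -0.56 to 0.01, limma adjusted p = 0.627), and without control replicate 3 it was -0.13.

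Csf1, which encodes M-CSF, lies on chromosome 3 (107741048 to 107760469, minus strand). It measured 3.11, 3.06 and 3.01 FPKM with TPPU and 2.88, 2.89 and 3.31 in control, on 269 to 369 fragments per library. The TPPU values lay inside the range of the control values, and the log2 fold change was 0.01 with a 95% interval from -0.25 to 0.27 (limma adjusted p = 0.973).

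**Figure D2:**
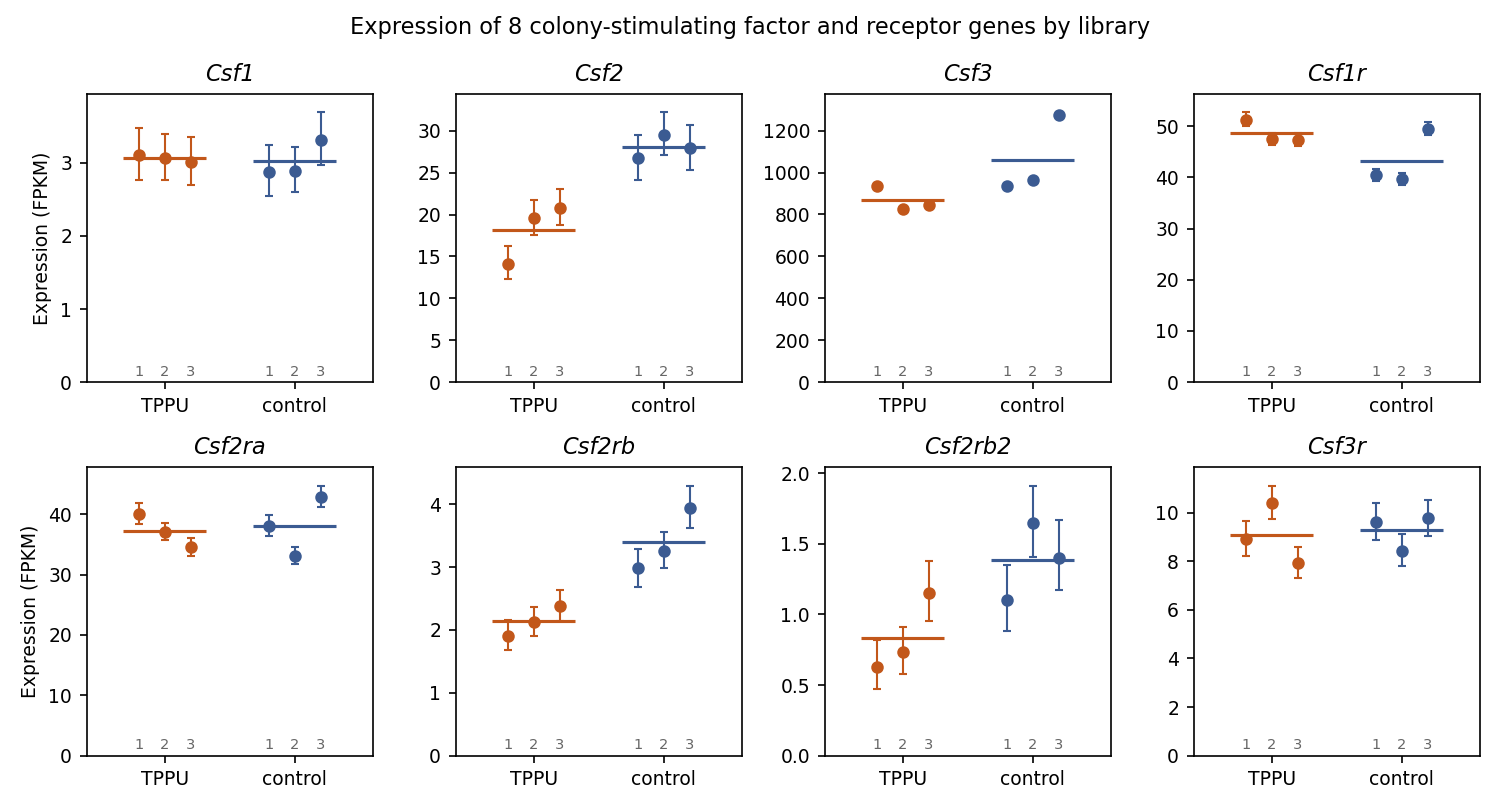
Expression in FPKM of each gene by library, with TPPU left and control right in each panel and the replicate number below each point. Bars are 95% Poisson intervals on the recovered fragments and horizontal lines are group means. For Csf2 the TPPU libraries lie between 14.1 and 20.8 FPKM and the control libraries between 26.7 and 29.5, while for Csf1 both groups lie between 2.88 and 3.31.

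Among the receptor genes, the common beta chain Csf2rb was lower with TPPU in every library. It lies on chromosome 15 (78325752 to 78353847, plus strand) and measured 1.91, 2.12 and 2.38 FPKM in TPPU replicates 1 to 3, and 2.98, 3.26 and 3.94 in control replicates 1 to 3. These values rested on 253, 352 and 368 fragments with TPPU and on 383, 534 and 548 in control. The TPPU mean was 37.0% lower, and the highest TPPU value had a counting interval of 2.14 to 2.64 FPKM against 2.68 to 3.29 for the lowest control value. The log2 fold change on the log2(FPKM + 1) scale, which understates the change of low genes, was -0.48 (SE 0.13, 95% interval -0.79 to -0.17). It was the 141st smallest p of all genes tested and did not pass (limma adjusted p = 0.470).

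The second beta chain gene, Csf2rb2, measured 0.626, 0.731 and 1.15 FPKM with TPPU and 1.10, 1.65 and 1.40 in control. Its mean was 39.5% lower with TPPU, but TPPU replicate 3 lay above control replicate 1, so the groups overlapped. With 54 to 176 fragments per library it had the widest counting intervals relative to its level, 0.470 to 0.816 FPKM in TPPU replicate 1 and 1.41 to 1.91 in control replicate 2. The log2 fold change was -0.38 (SE 0.17, 95% interval -0.77 to 0.01, limma adjusted p = 0.627), or -0.69 with a pseudocount of 0.1 in place of 1.

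The beta chain genes are near copies of each other, so their values depend on where shared reads were placed. Csf2rb2 lies on the minus strand (78282507 to 78305721), 20030 bases from Csf2rb. Their coding sequences, of 2691 bases in Csf2rb and 2637 in Csf2rb2, were 95.4% identical over the aligned bases, with 122 mismatches and a longest identical run of 242 bases. A pair of 60-base windows that share 1 base shows how reads could and could not be told apart, with the bases that differ in capitals. The first window is the first of the identical ones and the second the one with the most differences, 13.
Csf2rb, identical window, chr15:78338834-78338893, plus strand: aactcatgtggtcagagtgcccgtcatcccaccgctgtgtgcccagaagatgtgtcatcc
Csf2rb2, identical window, chr15:78294438-78294497, minus strand: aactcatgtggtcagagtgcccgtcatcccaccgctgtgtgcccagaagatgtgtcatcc
Csf2rb, differing window, chr15:78338893-78338952, plus strand: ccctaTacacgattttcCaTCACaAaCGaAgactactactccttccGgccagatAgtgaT
Csf2rb2, differing window, chr15:78294379-78294438, minus strand: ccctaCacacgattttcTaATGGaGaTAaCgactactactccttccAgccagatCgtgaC

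Of 1685 such windows that lie within 1 exon of each gene, 26.2% were identical in both genes. Over the whole transcripts 18.4% of the 50-base windows of Csf2rb and 19.0% of those of Csf2rb2 occurred in the other gene, and 6.96% and 7.20% of the 100-base windows. Neither the read length nor the treatment of reads that map to both genes is given in the sources used here. A sum over both genes does not depend on how such reads were divided between them, provided that each was counted once. If such reads were dropped or counted for both genes, the sum would change too. In fragments scaled to the library total (CPM) it was 16.9, 18.9 and 22.8 in TPPU replicates 1 to 3, and 26.9, 31.5 and 35.3 in control replicates 1 to 3, and the groups did not overlap. Csf2rb2 made up 17.6%, 18.3% and 24.0% of that sum with TPPU and 19.4%, 24.8% and 18.8% in control.

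The alpha chain of the GM-CSF receptor and the receptors for M-CSF and G-CSF had overlapping groups. Csf2ra (chromosome 19, 61223957 to 61228429, minus strand) measured 40.1, 37.1 and 34.5 FPKM with TPPU and 38.1, 33.1 and 42.9 in control. Its log2 fold change was -0.02 with a 95% interval of -0.29 to 0.24 (limma adjusted p = 0.965), and it was 0.07 without control replicate 3. Csf3r (chromosome 4, 126024550 to 126044440, plus strand) measured 8.92, 10.4 and 7.93 FPKM with TPPU and 9.60, 8.44 and 9.76 in control, a change of -0.03 with an interval of -0.31 to 0.25 (limma adjusted p = 0.954). A p above the threshold does not show that these levels were equal.

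Csf1r, the receptor gene with the highest level, had the largest positive change of the family. It lies on chromosome 18 (61100598 to 61132149, plus strand) and measured 51.3, 47.5 and 47.4 FPKM with TPPU and 40.5, 39.7 and 49.5 in control. Control replicates 1 and 2 lay below every TPPU library and control replicate 3 among them. TPPU replicate 1 and control replicate 3, in which mitochondrial RNA was lowest, had the highest values of Csf1r, and also of Csf2ra (40.1 and 42.9 FPKM, against 33.1 to 38.1 in the other 4) and of Csf1 (3.11 and 3.31, against 2.88 to 3.06). The part of the mitochondrial share in these values was not tested. The log2 fold change was 0.18 (SE 0.11, 95% interval -0.07 to 0.42, limma adjusted p = 0.694), and it was 0.28 without control replicate 3. On the opposite strand Csf1r overlaps Hmgxb3, which reached 9.40 FPKM, and Csf2 overlaps Gm12223, which reached 0.750 FPKM. The libraries keep the strand by protocol, but whether the counting used it is not given in the sources used here.

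**Figure D3:**
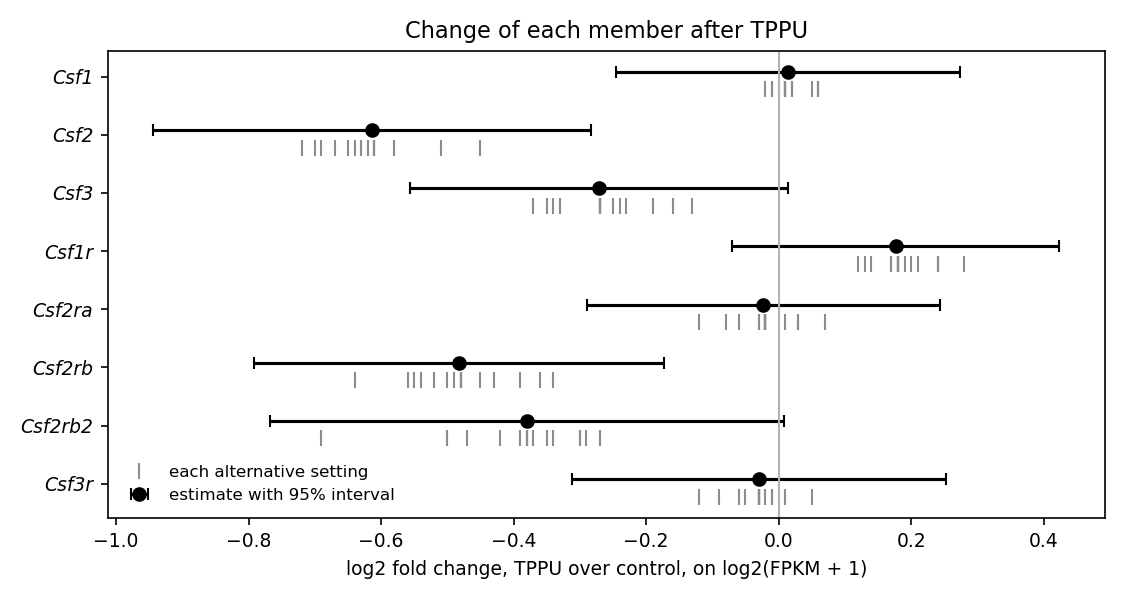
Log2 fold change of each gene, TPPU over control, on the log2(FPKM + 1) scale. Points are limma estimates with 95% intervals and grey ticks are the values under each alternative setting. The intervals of Csf2 and Csf2rb lie below 0, and those of the other 6 genes include it, before any adjustment for the number of genes tested.

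Ratios of ligand to receptor within a library do not depend on the scaling between libraries, and they are given as values without a test. Csf3 exceeded its receptor gene in every library, with Csf3 over Csf3r at 105, 79.4 and 106 with TPPU and 97.7, 114 and 130 in control. Csf1 was far below its receptor gene, with Csf1 over Csf1r at 0.0606, 0.0645 and 0.0636 with TPPU and 0.0711, 0.0729 and 0.0670 in control. Csf2 was below its alpha chain and above its beta chain in every library.

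In every TPPU library the ratios of Csf1 to Csf1r and of Csf2 to Csf2ra lay below those of every control library. Csf1 and Csf1r alone each had overlapping groups. Counting error was not worked out for the ratios, nor was the share of separate ratios over all genes. The closest values of Csf1 over Csf1r were 0.0645 in TPPU replicate 2 and 0.0670 in control replicate 3. In these libraries the 95% counting intervals of Csf1, 2.76 to 3.39 and 2.97 to 3.69 FPKM, overlapped. The separation of this ratio is therefore not shown to exceed counting error. Csf2 over Csf2ra was 0.352, 0.529 and 0.604 with TPPU and 0.702, 0.893 and 0.650 in control. Csf2 over Csf2rb overlapped between the groups, at 7.41, 9.25 and 8.75 with TPPU and 8.98, 9.06 and 7.07 in control. Csf2rb over Csf2rb2 also overlapped, at 3.05, 2.90 and 2.07 with TPPU and 2.71, 1.98 and 2.81 in control. So did Csf3 over Csf2, at 66.3, 42.2 and 40.5 with TPPU and 35.1, 32.6 and 45.7 in control. The alpha chain exceeded the common beta chain everywhere, and Csf2ra over Csf2rb was 21.0, 17.5 and 14.5 with TPPU and 12.8, 10.2 and 10.9 in control, with no overlap.

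Other ligands and chains that share these receptors were at or near the limit of detection. Il34, which encodes the other ligand of CSF1R, measured 0.196, 0.0672 and 0.0240 FPKM with TPPU and 0.0866, 0.159 and 0.534 in control, on 1 to 20 fragments. Il3ra, the alpha chain of the IL-3 receptor that pairs with the beta chains, had 0 fragments in all libraries but control replicate 3, which had 2. At this depth 3 fragments of a 1 kb gene correspond to 0.132 to 0.170 FPKM. Il3, the gene beside Csf2, was not analysed here.

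Genes of the signalling path behind the receptors were present, and none was called. Of 26 genes listed 25 were tested, with 11 positive and 14 negative changes and a median of -0.02. Of these 25 the groups were separate in 1 with TPPU above and in 3 with TPPU below, beside 7.48% and 7.88% of all genes tested. Jak2, the kinase bound to the beta chain, averaged 23.6 ± 1.29 FPKM with TPPU and 23.1 ± 3.71 in control. Its substrates Stat5a and Stat5b averaged 19.2 ± 1.94 and 14.8 ± 1.33 FPKM with TPPU and 18.2 ± 1.55 and 15.1 ± 2.40 in control, and Stat3 15.3 ± 1.14 and 17.9 ± 2.65. The smallest p among the lower genes belonged to Sos2, an exchange factor for Ras, at 5.28 ± 0.563 with TPPU and 7.13 ± 0.597 in control, and to the kinase gene Src, at 1.90 ± 0.211 and 2.74 ± 0.499. Among the higher genes it belonged to Pik3cg, a catalytic subunit of PI3 kinase, at 5.82 ± 0.579 and 4.92 ± 0.256, and to the kinase gene Lyn, at 101 ± 12.3 and 88.3 ± 12.7 (limma adjusted p from 0.535 to 0.725 for these 4).

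Negative regulators of the receptors had mostly negative changes. Of 11 tested among 14 listed, 9 were negative and 2 positive, with a median of -0.11, and 0 were called. TPPU values lay wholly below control in 4 and wholly above in 0. Over all genes tested 45.6% were negative, 7.88% wholly below and 7.48% wholly above. Socs3, which blocks CSF3R signalling, measured 43.3, 35.8 and 39.7 FPKM with TPPU and 45.7, 65.6 and 103 in control (log2 fold change -0.76, SE 0.25, limma adjusted p = 0.562). Its control values spread widely, with the highest in control replicate 3. Cish, a target of STAT5 downstream of GM-CSF, measured 1.97, 1.93 and 1.97 FPKM with TPPU and 2.17, 2.23 and 3.16 in control. Inpp5d, which encodes the phosphatase SHIP1, averaged 38.4 ± 3.96 with TPPU and 45.7 ± 5.48 in control. The positive changes were those of Ptpn6, which encodes SHP-1, at 124 ± 6.67 and 109 ± 18.8, and of Adam17, a protease that sheds CSF1R, at 23.3 ± 1.38 and 22.2 ± 0.972.

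Transcription factors known at these genes mostly had negative changes, beside 45.6% negative over all genes tested. Of 20 tested among 24 listed 15 had negative changes and 5 positive ones, with a median of -0.12, or -0.03 without control replicate 3, and 0 were called. In 6 every TPPU value lay below every control value and in 0 above, beside 7.88% and 7.48% of all genes tested. Fos, a subunit of AP-1, measured 2.99, 2.52 and 3.58 FPKM with TPPU and 6.39, 4.57 and 6.74 in control (log2 fold change -0.77, SE 0.16, limma adjusted p = 0.395). Cebpb, which encodes C/EBPβ, averaged 33.6 ± 4.87 and 50.3 ± 6.96 (log2 fold change -0.57, SE 0.14, limma adjusted p = 0.397). Spi1, which encodes PU.1, the factor that drives Csf1r and Csf2ra, averaged 37.1 ± 2.70 with TPPU and 39.8 ± 5.03 in control, and the groups overlapped. The smallest p among the positive changes belonged to Nfkb2, at 130 ± 5.12 and 128 ± 8.16, and Irf8, at 38.5 ± 1.63 and 38.1 ± 4.73.

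Factors that bind or degrade AU-rich mRNAs had changes in both directions. All 19 listed were tested, 9 with positive and 10 with negative changes and a median of -0.02, and 0 were called. Zfp36, which encodes tristetraprolin, measured 74.8, 72.4 and 82.8 FPKM with TPPU and 94.7, 139 and 168 in control (log2 fold change -0.76, SE 0.19, limma adjusted p = 0.397). Its relative Zfp36l2 averaged 9.12 ± 1.72 with TPPU and 14.0 ± 1.85 in control. Elavl1, which encodes the stabilising protein HuR, averaged 13.1 ± 0.409 with TPPU and 11.4 ± 1.53 in control. Parn, a deadenylase gene, measured 7.34, 7.67 and 8.35 with TPPU and 5.93, 6.41 and 5.66 in control, a log2 fold change of 0.33 (SE 0.11, limma adjusted p = 0.554). The groups did not overlap in any of these 4 genes, with TPPU below for Zfp36 and Zfp36l2 and above for Elavl1 and Parn. In the whole list 3 genes lay below and 2 above, beside 7.88% and 7.48% of all genes tested.

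Most of the genes known to respond to GM-CSF or M-CSF in macrophages had negative changes, beside 45.6% of all genes tested. Of 15 tested among 24 listed 11 had negative changes and 4 positive ones, with a median of -0.14 and 0 called. Il1rn, which encodes the IL-1 receptor antagonist, measured 297, 303 and 335 FPKM with TPPU and 476, 517 and 384 in control (log2 fold change -0.55, SE 0.12, limma adjusted p = 0.395). Pim1, a kinase gene downstream of STAT5, measured 52.9, 56.2 and 52.3 with TPPU and 67.9, 66.6 and 75.8 in control (log2 fold change -0.38, SE 0.09, limma adjusted p = 0.397). In the other direction the chemokine gene Ccl22 averaged 35.5 ± 1.55 with TPPU and 28.6 ± 4.24 in control, and the protease gene Mmp9 51.8 ± 5.52 and 36.7 ± 4.80. Of the 15, 5 lay wholly below control and 2 wholly above, beside 7.88% and 7.48% of all genes tested.

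**Figure D4:**
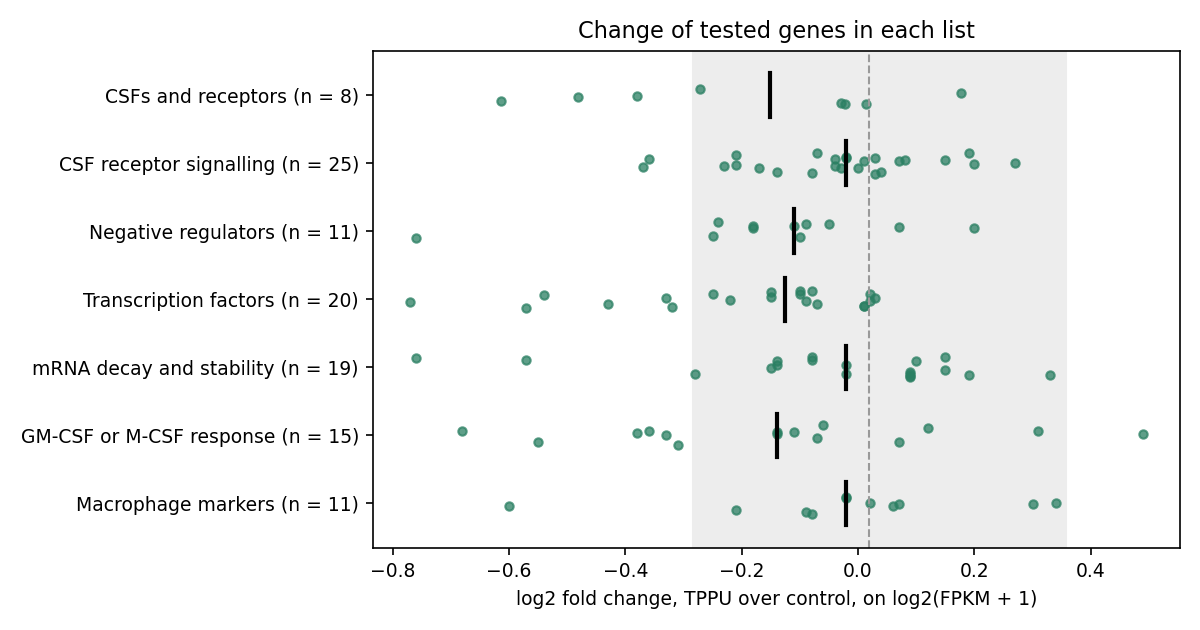
Log2 fold change, TPPU over control, of each tested gene in the family and in 6 lists, 1 point per gene, with black bars at list medians. The grey band spans the 5th to the 95th percentile of all 9728 genes tested, -0.28 to 0.36, and the dashed line is their median of 0.02. Csf2, Csf2rb and Csf2rb2 lie left of the band.

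The genes whose profile over the 6 libraries was most like that of Csf2 were Id2, Myc and Tmem263. Likeness was the root-mean-square difference between log2(FPKM + 1) profiles, each centred on its own mean, and it was 0.0885, 0.0887 and 0.0998 for these genes, against 0.350 for the spread of Csf2 itself. Id2, an inhibitor of helix-loop-helix factors, measured 12.9, 15.4 and 16.1 FPKM with TPPU and 21.3, 23.3 and 24.5 in control. Myc measured 3.29, 4.73 and 5.24 with TPPU and 6.76, 9.12 and 7.11 in control. For Csf2rb the nearest genes were Dhrs1, Nod2 and Nfkbiz (0.0653 to 0.0704, against 0.266 for Csf2rb itself), and Nfkbiz, which encodes the NF-κB cofactor IκBζ, measured 74.3, 82.1 and 82.6 FPKM with TPPU and 94.6, 99.3 and 114 in control. With 6 libraries and 9728 genes some profiles lie close by number alone.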

How the data were processed

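Per the labels' protocols, Trizol RNA was selected on oligo(dT) beads, and dUTP in the second strand keeps the orientation. The authors deposited 1 table of FPKM for 18019 gene symbols in 6 libraries on mm10, a build taken from the submitters' processing notes. For the aligner, counter, annotation and filters nothing is given in the sources used here. Library names tie columns to samples. Depth was estimated from the steps of low values. FPKM are not counts, so no count test was run. On log2(FPKM + 1), limma 3.58.1 under R 4.3.3 compared the 9728 of 18019 genes that reached 1 FPKM in 3 of 6 libraries, with a variance trend, group as the only term and Benjamini-Hochberg adjustment at 0.05, two-sided. The limma fit was also run on simulated data, and no outcome of that run is given or relied on here. Lists were described by counts and medians. From each list the text names the 2 tested genes of each direction with the smallest p, 11 genes for their role, and for each member the 3 genes of nearest profile. The members and lists were chosen with earlier results of these data known.

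Alternatives were other pseudocounts (0.1, 0.5), all genes without a filter, genes averaging 5 FPKM or more, scaling by median ratios, quantile normalization, a fit without the trend, sample quality weights, the replicate number as a block, a loess trend (span 0.3) on GC content or length removed, each library left out, and control replicate 3 and TPPU replicate 1 left out together. GC content, lengths, positions (1-based) and sequences came from GENCODE M21 on GRCm38, and 9522 tested genes had GC and length. Other software was biopython 1.88, scipy 1.17.1, matplotlib 3.10.9, pandas 2.3.3 and numpy 2.4.6 under Python 3.11.15.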

Additional observations from a re-analysis of the deposited data

How the results depend on the processing

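The changes of Csf2, Csf3, Csf2rb and Csf2rb2 were negative and that of Csf1r positive under every alternative in which each was tested (18 alternatives, or 17 for Csf2rb and Csf2rb2, which with Csf1 fell below the filter at a mean of 5 FPKM). With each library left out in turn the log2 fold change ranged from -0.72 to -0.45 for Csf2, -0.35 to -0.13 for Csf3, -0.55 to -0.39 for Csf2rb, -0.50 to -0.30 for Csf2rb2, 0.12 to 0.28 for Csf1r, -0.01 to 0.06 for Csf1, -0.12 to 0.07 for Csf2ra and -0.12 to 0.05 for Csf3r. Changes near 0 turned sign. Csf1 turned to -0.02 with quantile normalization and to -0.01 without control replicate 1 or 2. Csf2ra turned to 0.03 with the GC trend removed and without TPPU replicate 3, to 0.07 without control replicate 3 and to 0.01 without control replicate 3 and TPPU replicate 1 together. Csf3r turned to 0.00, 0.05, 0.01 and 0.01 under those settings. Csf2 passed with sample quality weights (-0.51, limma adjusted p = 0.0491). With the GC trend removed Csf2 changed by -0.69 and with the length trend removed by -0.70. The cause was not tested.

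The count over all genes was 0, and it was 169 with sample quality weights, 39 without control replicate 3 and TPPU replicate 1 together, 1 with the GC trend removed, and 0 to 6 with single libraries left out (6 without TPPU replicate 1). At an unadjusted p under 0.05 it was 768. The median of the negative regulators was -0.18 with the GC trend removed. With single libraries left out the median of the transcription factors ranged from -0.22 to -0.03 (without control replicates 1 and 3) and that of the mRNA decay list from -0.04 to 0.09 (without control replicates 3 and 2). All 42 ligand and receptor ratios with a library left out moved by less than 1 SD. The mean of 3 values cannot move further than that when 1 is left out, so the comparison decides nothing. The replicate number as a block gave 0 calls, and Csf2 had a limma adjusted p of 0.616 in it. Same-numbered libraries did not deviate together (correlations of -0.301, 0.154 and -0.399 for numbers 1, 2 and 3). With 3 libraries per group these correlations cannot show whether same-numbered libraries were paired. Depth limits Csf2rb2 most.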

Other observations

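Flt3l, which encodes the ligand of the receptor tyrosine kinase FLT3, averaged 6.05 ± 1.27 FPKM with TPPU and 5.42 ± 1.09 in control (SD, n = 3 each), with overlapping groups, while Flt3 itself had between 0 and 5 fragments per library. Kitl, the ligand gene of the stem cell factor receptor, measured 0.622, 0.319 and 0.741 FPKM with TPPU and 0.736, 1.26 and 0.771 in control, and Kit had between 0 and 5 fragments. Both families thus had a detectable ligand mRNA and a receptor mRNA near 0, and the receptor genes are close relatives of Csf1r.

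Among the macrophage markers, of which 11 were tested with 5 positive and 6 negative changes and a median of -0.02, Adgre1 (F4/80) measured 270, 271 and 266 FPKM with TPPU and 234, 242 and 183 in control, and Lyz2 336, 313 and 329 with TPPU and 236, 238 and 307 in control. The Fc receptor gene Fcgr3 averaged 2.41 ± 0.566 with TPPU and 4.29 ± 1.70 in control, and Lgals3 measured 171, 170 and 169 with TPPU and 181, 192 and 220 in control. None was called by limma (adjusted p from 0.562 to 0.627 for these 4).

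The 3 nearest profiles by the same measure of likeness were Plk3, Sema4d and Phactr4 for Csf3 (0.0265 to 0.0287), Fth1, Ralb and Gnptg for Csf1 (0.0159 to 0.0174), Phf5a, Pck2 and Mcrs1 for Csf1r (0.0203 to 0.0237), Hdac5, Hmg20b and Sart1 for Csf2ra (0.0119 to 0.0192), Id1, Tctn3 and Zmym1 for Csf2rb2 (0.0619 to 0.0745) and Snhg17, Asb7 and Tctn1 for Csf3r (0.0295 to 0.0313).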
